A study of Oncorhynchus mykiss with 6 samples.

Results

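The entries described here were those of the miRNA families miR-148 and miR-152 in dorsal skin of rainbow trout. They were chosen by name from the miRNA table, as every entry whose name without the species prefix read miR-148 or miR-152, whatever its arm, letter or length variant. This gave 11 of the 1426 entries, 6 of miR-148 and 5 of miR-152. Small RNA was sequenced from 3 wild-type fish (WR_S) and 3 yellow mutant fish (YR_S), all female and 12 months post hatching, kept in the same flowing-water pond, with 1 library per dorsal skin. The yellow mutant differs from the wild type in body colour, and the sources used here give no gene or allele for it. Citing earlier work, the study states that its skin lacks melanocytes and holds fewer xanthophores, another pigment cell type, than wild-type skin. The purpose of the comparison was to find RNAs that differ between skins of the 2 colours, with immunity in view. Skin pieces hold many cell types, so fewer cells of a type and less RNA per cell cannot be told apart.

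Mature miRNAs guide silencing complexes to mRNAs, mainly through the seed, bases 2 to 8 from the 5′ end. Members of the miR-148 and miR-152 family share 1 seed on their 3p arm and can therefore recognise many of the same targets. In human melanoma cells miR-148 represses MITF, the transcription factor that directs pigment cell development. Human DNMT1, a DNA methyltransferase, is another known target of the family, and in mouse dendritic cells these miRNAs dampen responses to bacterial ligands. The 5p arm comes from the other strand of the same hairpin and is usually the scarcer product. These roles are background, and mitf mRNA was not analysed here.

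The sequences show how little separates the entries. They are given 5′ to 3′ as deposited, with the seed in capitals, and the first group holds the abundant 3p forms of both families.
ssa-miR-152-3p: tCAGTGCAtaacagaactttg
ola-miR-152_R-1: tCAGTGCAtaacagaactttgt
ola-miR-152_1ss23CA: tCAGTGCAtaacagaactttgta
fru-miR-152_L+1: cTCAGTGCataacagaactttgt
ssa-miR-148a-3p_R-1: tCAGTGCAttacagaactttg
The first 3 are length forms of miR-152 of 21, 22 and 23 bases. The suffix of the 23-base form records its last base as A where the database sequence has C. The entry fru-miR-152_L+1 has 1 further base at its 5′ end, which shifts its seed. Counted from the 5′ end, ssa-miR-152-3p and ssa-miR-148a-3p_R-1 differ only by A10T, outside the seed. The entry ssa-miR-148b-3p_R-1_1ss21AG had the same sequence and the same counts as ssa-miR-148a-3p_R-1 in all 6 libraries, so both are 1 measurement, and miR-148a and miR-148b could not be told apart by it.

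The 5p arms of both families are shown because they also share a seed with each other.
ssa-miR-148a-5p: aAGTTCTGtgatacacttcgact
ssa-miR-152-5p_L-1: aAGTTCTGtgatacacttaggct
From the first to the second they differ by C19A and A21G. Only these 2 entries of the whole table carried that seed.

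The last group holds scarce 3p entries named after database sequences of other vertebrates, where the suffix 1ss10TA marks a base changed from T to A.
aca-miR-148a-3p_1ss10TA: tCAGTGCAcaacagaactttgt
hsa-miR-148a-3p: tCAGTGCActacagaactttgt
The first differs from ola-miR-152_R-1 by T9C alone, and the second from ssa-miR-148a-3p_R-1 by T9C and 1 base more at its 3′ end. The remaining member, hsa-miR-148a-3p_R-2, is the same sequence 2 bases shorter. The 3p seed CAGTGCA stood in 9 entries of the table, 8 of them members. The ninth was the predicted candidate PC-3p-78974_9, which differs from ssa-miR-148a-3p_R-1 by G21A and 2 added bases. It held 8 and 5 counts in WR_S replicates 1 and 2 and 0 in the other 4 libraries. The suffix of the miR-148b entry records the opposite change at that position, from the database base to the one read.

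Levels are given in CPM, counts scaled to a common total of 1000000 per library, after TMM scaling, which sets the libraries to a common level for most entries. The library totals were 4477917 to 5089802 counts in WR_S and 1442631 to 4388665 in YR_S, with YR_S replicate 1 the shallowest. A count of 3 stood for 1.95 CPM there, against 0.578 to 0.765 CPM elsewhere. WR_S replicate 3 stood apart by its miR-122 entries, whose values follow further on with the other tissue markers. All members together took 1.54% to 2.39% of the counts of a WR_S library and 0.934% to 1.94% of a YR_S library. Of the 55 member values above 0, 21 were not whole numbers (tolerance 1e-06), so reads with several matches appear to have been divided. How this was done is not given in the sources, so members may share reads and may not be independent of each other.

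The 21-base ssa-miR-152-3p was the most abundant member and ranked 30th of all entries by mean level. In WR_S it was at 8699, 7101 and 11778 CPM, replicates in order. In YR_S it was at 4208, 10552 and 3844 CPM. YR_S replicate 2 lay within the WR_S range, whereas YR_S replicates 1 and 3 lay below it, so the groups overlapped. The means were 6201 ± 3772 CPM (SD, n = 3) in YR_S and 9193 ± 2377 CPM (SD, n = 3) in WR_S. The log2 fold change of YR_S over WR_S was -0.57 ± 0.40 (SE), with an adjusted p of 0.747 in edgeR's quasi-likelihood test over 1085 entries, and the difference did not exceed the spread between libraries.

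**Figure D1:**
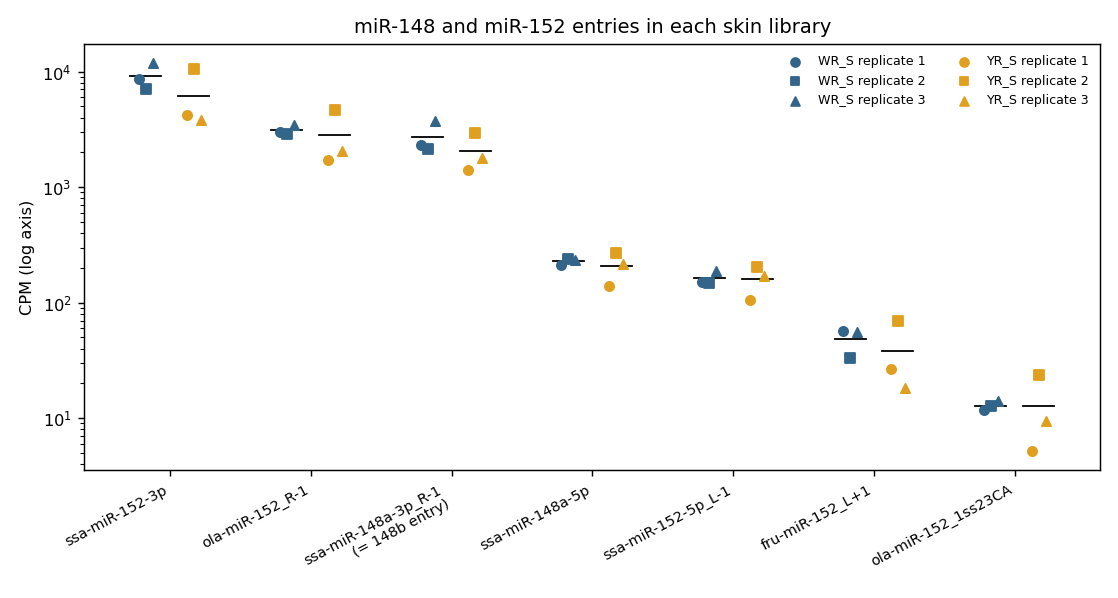
Level of each member averaging at least 10 CPM, on a log axis. Each point is 1 library, blue for WR_S and yellow for YR_S, with symbols for the replicates and a black line for the group mean, and YR_S replicate 2 is the highest YR_S library for all 7 entries shown.

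The 22-base form ola-miR-152_R-1 was at 2971, 2857 and 3478 CPM in WR_S and at 1707, 4656 and 2045 CPM in YR_S, replicates in order. YR_S replicate 2 was above every WR_S library here, and the other YR_S libraries were below every WR_S library. The log2 fold change was -0.15 ± 0.37 (SE), with an edgeR adjusted p of 0.947.

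The 2 scarcer forms of miR-152 spread even more within YR_S. The 5′-extended fru-miR-152_L+1 was at 56.6, 33.1 and 55.3 CPM in WR_S and at 26.7, 68.9 and 18.3 CPM in YR_S. The 23-base ola-miR-152_1ss23CA was at 11.8, 12.7 and 14.0 CPM in WR_S and at 5.21, 23.7 and 9.40 CPM in YR_S. In both, YR_S replicate 2 was the highest of all 6 libraries and the other YR_S libraries were below all of WR_S. Of the 493 entries averaging at least 10 CPM, 11.4% had YR_S replicates 1 and 3 both below every WR_S library. The highest YR_S library exceeded the lowest 3.76-fold for fru-miR-152_L+1 and 4.55-fold for ola-miR-152_1ss23CA, against 1.71-fold and 1.19-fold in WR_S.

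The miR-148 sequence ssa-miR-148a-3p_R-1, whose family is the one tied to MITF in human cells, was at 2307, 2149 and 3706 CPM in WR_S and at 1407, 2929 and 1791 CPM in YR_S. WR_S replicate 3 was the highest library and YR_S replicate 2 the next, and the groups overlapped. The means were 2043 ± 792 CPM (SD, n = 3) in YR_S and 2721 ± 857 CPM (SD, n = 3) in WR_S. The log2 fold change was -0.41 ± 0.33 (SE), with an edgeR adjusted p of 0.814.

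Within YR_S the 5p arms varied less than the 3p forms averaging at least 10 CPM. The entry ssa-miR-148a-5p was at 211.04, 237 and 234 CPM in WR_S and at 138, 269 and 215 CPM in YR_S. The entry ssa-miR-152-5p_L-1 was at 152.1, 148.05 and 189 CPM in WR_S and at 105, 202 and 171 CPM in YR_S. YR_S replicate 1 was the lowest library and YR_S replicate 2 the highest for both arms, and YR_S replicate 3 lay within the WR_S range. These places are those of TMM-scaled levels, and the TMM factor of YR_S replicate 2 was the lowest, at 0.896. By counts over library totals YR_S replicate 2 was the highest for neither arm, and YR_S replicate 3 was below WR_S for ssa-miR-148a-5p. The log2 fold changes were -0.13 ± 0.29 (SE) for ssa-miR-148a-5p and -0.03 ± 0.30 (SE) for ssa-miR-152-5p_L-1, with edgeR adjusted p of 0.938 and 0.987.

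By mean level the order was the 21-base miR-152, its 22-base form, miR-148a-3p, the 5p arm of miR-148a, the 5p arm of miR-152, the 5′-extended form and the 23-base form. Each step held in all 6 libraries except that from ola-miR-152_R-1 to ssa-miR-148a-3p_R-1, which held in 5 of 6 and whose ranges overlapped in both groups. In YR_S the ranges of neighbours overlapped at 4 of the 6 steps, and were apart only from miR-148a-3p to its 5p arm and from ssa-miR-152-5p_L-1 to fru-miR-152_L+1. Whether the identical miR-148a and miR-148b entries each hold a share of the reads or the full count is not given in the sources. Summed, both entries averaged 4764 CPM, above the 22-base miR-152 and below the 21-base miR-152 in 6 of 6 libraries, so the place of miR-148 after the 22-base form holds only for the entries taken singly. This is an order of reads, not of molecules.

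Across the members no difference passed the adjustment. Of the 11 entries 10 were above 0 in at least 3 libraries and were tested, and 0 had an adjusted p below 0.05, where the background over all entries was 0%. DESeq2 and limma also called 0 members, although DESeq2 gave no adjusted p for 1 of them and called 3.69% of the 976 entries to which it gave one. At an unadjusted p below 0.05 edgeR gave 1 member and DESeq2 gave 0, and 10.4% of all entries tested by edgeR passed there, 6.91% as lower in YR_S. The fitted log2 fold change was below 0 in 9 of the 10 members, against 52.6% of all entries, with a median of -0.38 against -0.03 over all 1085. The 9 include aca-miR-148a-3p_1ss10TA, which passed the filter only through WR_S, so its sign was fixed in advance and carries no weight. They also include the identical miR-148a and miR-148b entries, which are 1 measurement. The value of the tenth, ola-miR-152_1ss23CA, was 0.03 and changed sign with other scalings, tests and filters, and that of ssa-miR-152-5p_L-1 changed sign without YR_S replicate 1. Among members averaging at least 10 CPM it was below 0 in 7 of 8, with a median of -0.24, against 214 of 493 entries with a median of 0.06. Since the members share the library pattern and may share reads, these counts do not add up as separate results.

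**Figure D2:**
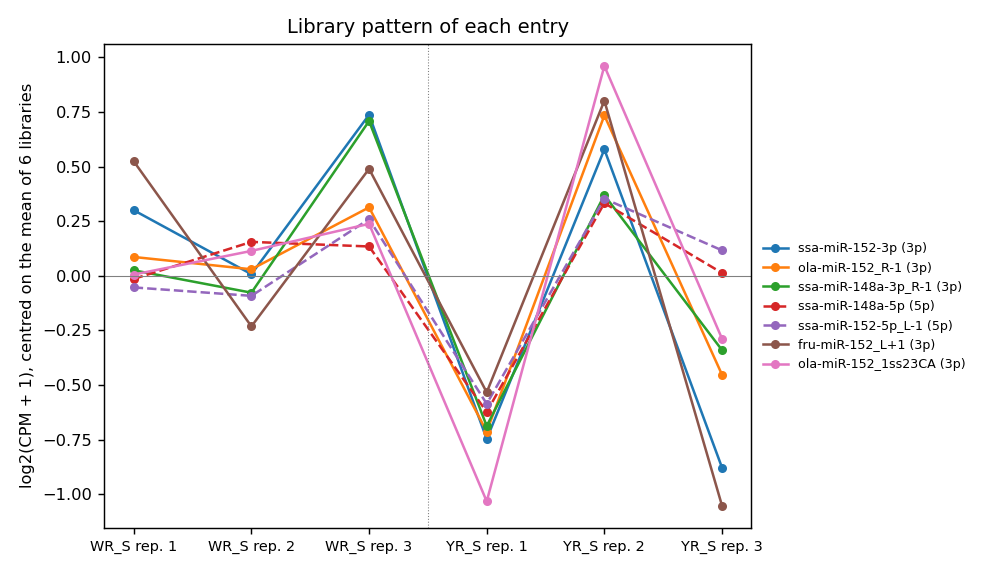
Level of each member averaging at least 10 CPM as log2(CPM + 1), centred on its mean over the 6 libraries. Solid lines are 3p and broken lines 5p entries, lines only join the values of 1 entry, and all 7 entries dip in YR_S replicate 1 and rise in YR_S replicate 2, while the 5p entries stay closer to 0 in YR_S replicate 3 than the 3p entries.

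YR_S replicate 2 stood above the other YR_S libraries for every member averaging at least 10 CPM. For ssa-miR-152-3p that library was 2.62 times the mean of the other YR_S libraries, for ola-miR-152_R-1 2.48 times, for ssa-miR-148a-3p_R-1 1.83 times, and for the 5p arms 1.52 and 1.46 times. Over the 493 entries averaging at least 10 CPM the median of this ratio was 1.08, and 7.51% of them reached 2.

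With YR_S replicate 2 left out, ssa-miR-152-3p had a log2 fold change of -1.19 ± 0.25 (SE), with an unadjusted p of 0.00287 and an adjusted p of 0.344 in edgeR. That of ola-miR-152_R-1 was then -0.73 ± 0.19 (SE) and that of ssa-miR-148a-3p_R-1 was -0.77 ± 0.30 (SE). Of the 9 members tested there 5 had an unadjusted p below 0.05, all lower in YR_S, against 9.32% of all entries. The identical miR-148a and miR-148b entries make up 2 of these 5 but are 1 measurement. Of the 5, ssa-miR-152-3p and fru-miR-152_L+1 also changed at least 2-fold, against 8.45% of all entries for the lower direction. None had an adjusted p below 0.05. Leaving out any other library gave log2 fold changes of -0.84 to -0.42 for ssa-miR-152-3p, and unadjusted p of 0.0804 to 0.305. The removed library was 1 of only 3 in its group, and the lower values rest on the remaining YR_S libraries. It was singled out as the highest YR_S library for these members. Lower fold changes without it were therefore fixed in advance, and these counts are no support for a difference.

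**Figure D3:**
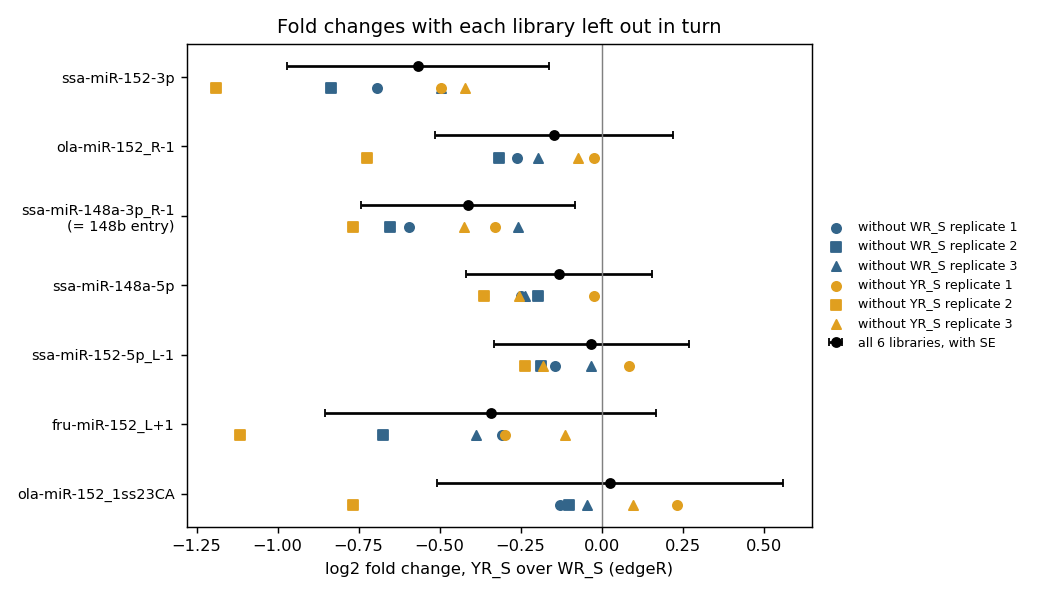
Log2 fold change of YR_S over WR_S for each member averaging at least 10 CPM. Black points with SE bars use all 6 libraries and coloured symbols leave out 1 library each, and for every entry the value farthest to the left is the one without YR_S replicate 2. That library was the highest in YR_S for each of these entries.

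Marker miRNAs of other tissues varied between libraries as well. The liver list (13 entries of miR-122, miR-192 and miR-194, all above 0 in some library) summed to 3514 CPM in WR_S replicate 3 and to 34.2 to 147.8 CPM elsewhere, with the hepatocyte marker miR-122 at 3405 CPM in WR_S replicate 3 and at 5.86 to 51.3 CPM elsewhere. Nearly all of the sum in WR_S replicate 3 was thus miR-122, so it speaks for that family and not for the whole list. The skeletal muscle list (21 entries) was also highest in WR_S replicate 3, at 12618 CPM, against 2008 to 6965 CPM elsewhere. WR_S replicate 3 was the highest library for ssa-miR-152-3p and ssa-miR-148a-3p_R-1, and miR-148a is abundant in mammalian liver. Without it the log2 fold change of ssa-miR-148a-3p_R-1 was -0.26 and that of ssa-miR-152-3p was -0.50. In YR_S replicate 2 the red cell list (7 entries of miR-451 and miR-144) was at 272 CPM, against 138 and 106 CPM in YR_S replicates 1 and 3. The liver list was at 147.8, 34.2 and 53.4 CPM in YR_S replicates 2, 1 and 3, with miR-122 at 51.3, 5.86 and 13.3 CPM. In the same order the skeletal muscle list was at 2197, 4951 and 2008 CPM, and the leukocyte list (15 entries) at 969, 1550 and 1174 CPM. The epithelial list (26 entries of miR-200, miR-203 and miR-205), which marks the tissue itself, was at 22781 to 36025 CPM over all libraries. The pancreas list (11 entries) was at 661 to 1030 CPM. The sums of the marker lists overlapped between WR_S and YR_S throughout. Such sums can hide single entries that move in opposite directions. Of pancreas miRNAs, every tested entry of miR-216 and miR-217 was fitted higher in YR_S, and every tested entry of miR-375 lower. The former and, of the latter, dre-miR-375_L+1 had an unadjusted p below 0.05 in edgeR, and none passed the adjustment. The part of other tissues in the members' levels was not tested.

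The arms and length forms were then compared within libraries, since such ratios do not depend on scaling. The 3p arm of miR-152 held 77.2, 67.6 and 81.0 times the counts of its 5p arm in WR_S and 56.7, 75.8 and 34.6 times in YR_S. For miR-148 the ratio was 21.9, 18.1 and 31.7 in WR_S and 20.4, 21.8 and 16.7 in YR_S. With the identical miR-148a and miR-148b counts taken once it was 10.96, 9.05 and 15.8 in WR_S and 10.2, 10.9 and 8.33 in YR_S. Both ratios overlapped between the groups. The 3p counts of miR-152 were 2.07 to 2.54 times those of miR-148 in WR_S and 1.65 to 2.61 times in YR_S, with overlap again. With the identical counts taken once this ratio was 4.13 to 5.07 in WR_S and 3.30 to 5.22 in YR_S.

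The ratio of the 21-base to the 22-base form of miR-152 did not overlap between the groups. It was 2.93, 2.49 and 3.39 in WR_S and 2.47, 2.27 and 1.88 in YR_S, and YR_S replicate 1 was just under WR_S replicate 2. The 21-base form made up 74.1%, 71.0% and 76.9% of the miR-152 3p counts in WR_S and 70.8%, 69.0% and 65.0% in YR_S. This ratio was singled out after its values were seen. The background was 60 pairs of entries that differ by 1 base at the 3′ end, each averaging at least 10 counts and present in every library. Of these, 8.33% had a shorter-to-longer ratio lower in YR_S without overlap and 8.33% had it higher. Some pairs held equal counts throughout and could not separate, and a miR-92a pair was listed again with the same values. That lowers these shares, while the miR-152 pair is itself 1 of the 5 counted as lower, which raises the first. The shares are therefore approximate. Given this background, nothing is read from this 1 pair. The 22-base to 23-base pair of miR-152 overlapped.

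**Figure D4:**
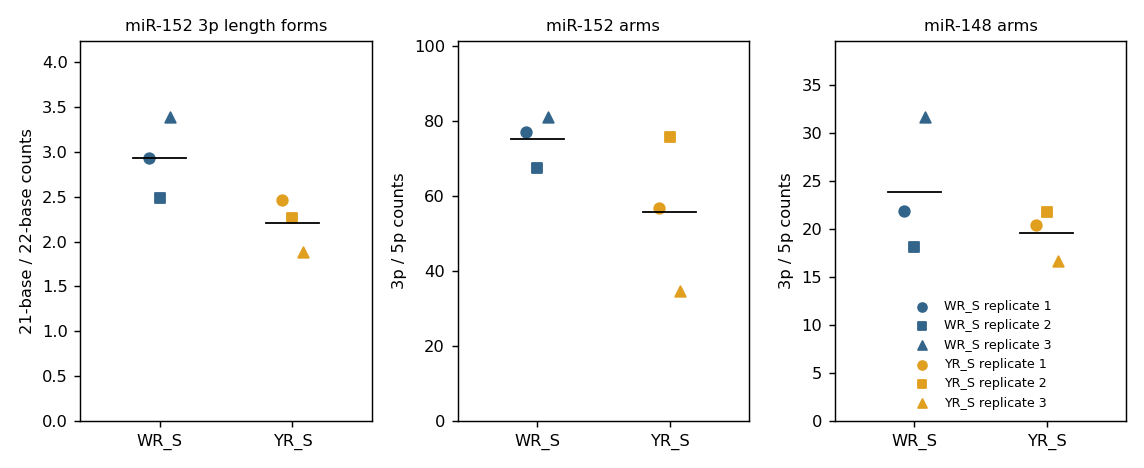
Ratios of counts within each library for the length forms of miR-152, for the arms of miR-152 and for the arms of miR-148, with axes starting at 0. The miR-148 ratio sums the identical miR-148a and miR-148b entries. Each symbol is 1 library and the black lines are group means, and only the length ratio at the left separates WR_S (2.49 to 3.39) from YR_S (1.88 to 2.47).

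The single member with an unadjusted p below 0.05 was scarce. The entry aca-miR-148a-3p_1ss10TA held 3, 2 and 2 counts in WR_S and 0 in every YR_S library. It passed the filter only through WR_S and both groups were at or under the floor of 3 counts per library, so no fold is given. Its unadjusted p was 0.0496 and its adjusted p 0.476 in edgeR. The study required a 2-fold or larger change with an unadjusted p under 0.05. By these thresholds it was the 1 member that was lower and 0 were higher, against 6.45% and 1.75% of all entries, or 8.2% in either direction. Without overlap between groups it was again the 1 member lower in YR_S, against 9.03% of all entries, and 0 members were higher, against 8.29%.

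As a share of itself and ola-miR-152_R-1, from which it differs by T9C, it made up 0.0155% of the WR_S counts (exact 95% Clopper-Pearson interval 0.00621% to 0.0318%). In YR_S it was at 0 beside 29359 counts of that form, which allows a share of up to 0.0102% by the floor of 3 counts, or 0.0126% as the exact upper limit. Both limits pool the YR_S libraries, and they lie below the WR_S share and within its interval. Taken singly, YR_S replicates 1, 2 and 3 had exact upper limits of 0.141%, 0.0202% and 0.0435%, each above the WR_S share. As the entry passed the filter only through WR_S, no difference is read from these shares. Such intervals and floors cover counting error only.

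The entry hsa-miR-148a-3p held 24, 0 and 4 counts in WR_S and 0, 5 and 0 in YR_S. WR_S replicate 1 alone held most of them, and hsa-miR-148a-3p_R-2 had 4 counts, all in that library, and was not tested. Beside ssa-miR-148a-3p_R-1 the first made up 0.19997% of the counts in WR_S replicate 1 (exact interval 0.128% to 0.297%) and 0.0229% in WR_S replicate 3 (0.00623% to 0.0585%). In YR_S replicate 2 the share was 0.0435% (0.0141% to 0.102%), between these values. With the counts of the identical miR-148b entry added to the denominator, the shares were 0.1001%, 0.0114% and 0.0218% in the same order. Its log2 fold change was -1.86 ± 1.68 (SE), with an edgeR adjusted p of 0.849.

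The entries whose library pattern was most like that of ssa-miR-152-3p were found from the mean absolute difference of centred log2(CPM + 1) over the 6 libraries, among 388 distinct entries outside both families averaging at least 10 CPM. These were PC-5p-10302_247 (0.23), oni-miR-130a_R-1 (0.25), PC-3p-3956_715 (0.27), ssa-miR-20a-5p (0.28) and mmu-miR-199a-3p_L-1R-2_1ss20TC (0.30), where the median was 0.65. Within the families ssa-miR-148a-3p_R-1 stood at 0.20 and ola-miR-152_R-1 at 0.21, nearer than any entry outside. The 23-base ola-miR-152_1ss23CA stood at 0.36 and both 5p arms at 0.39.

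Other miRNAs reported to act on or with MITF in mammalian pigment cells were taken as a list of 12 families, of which 10 had entries (56, with 53 tested) and the families miR-211 and miR-340 had none. The family miR-155 is also on the leukocyte list. Of these 53 entries 0 passed the adjustment in edgeR and 12 had an unadjusted p below 0.05, where 10.4% of all entries passed. Of the 12, 7 were entries of miR-204, which shares its seed with miR-211. By their names several of these 7 are length variants of the 5p arm, so they do not add up as separate results. The median log2 fold change was 0.33, above the -0.03 of all entries and the -0.38 of the miR-148 and miR-152 entries. At the study's thresholds hsa-mir-204-p5 was higher in YR_S, and ssa-miR-182-5p and dre-miR-155_R+3 were lower, against 1.75% and 6.45% of all entries. The entry dre-miR-155_R+3 was at 1.16, 4.04 and 0.847 CPM in WR_S and at 0 in every YR_S library. It passed the filter only through WR_S, so its direction was fixed in advance and carries no weight. Without overlap between the groups 14 entries of the list were higher in YR_S and 3 lower, against 8.29% and 9.03% of all entries. The 3 lower include dre-miR-155_R+3, with the same limit. The family miR-204 gave 7 of the 14, which again are not separate results. Among the 493 entries averaging at least 10 CPM, 66 were higher without overlap and 14 lower. Summed over its entries, miR-204 was at 23433, 18660 and 19995 CPM in WR_S and at 39855, 36152 and 37988 CPM in YR_S, 1.84-fold higher by means. The summed levels of miR-145 and miR-25 were also higher in YR_S without overlap, 1.35-fold and 1.34-fold, with no entry of either below an unadjusted p of 0.05 in edgeR. The miR-182 family is known to repress MITF in human melanoma cells. Its entry ssa-miR-182-5p was at 113, 85.4 and 41.9 CPM in WR_S and at 33.9, 33.9 and 15.0 CPM in YR_S, without overlap, and with an edgeR adjusted p of 0.273.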

How the data were processed

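Total RNA of 6 dorsal skins was used for small RNA libraries (TruSeq kit), which were read from 1 end. Per the study's methods the authors removed adapter dimers, reads of low complexity, repeats and other RNA classes by ACGT101-miR, matched tags to miRBase and predicted candidates (PC- names) by Mireap, with settings not given in the sources used here. For each entry the authors deposited an estimated count, not always a whole number, and a normalized signal, equal to the count times 1 factor per library (0.732 to 2.34). Columns of the authors' own comparison (fold change, log2 ratio, p-value) were not used.

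Counts were rounded to whole numbers and tested with edgeR's quasi-likelihood test (TMM factors, two-sided, Benjamini-Hochberg adjustment over the 1085 entries above 0 in at least 3 of 6 libraries). The test was tried on data simulated from the entries' mean levels and fitted spread. Each value was drawn separately, so reads shared between entries were not covered. The study's methods name DESeq2, used here as an alternative. SE is the fold change over the root of F. Sums, shares and ratios are descriptions without a test. With 3 fish in each group, p-values reflect the spread of these libraries only. The members, the marker and MITF lists and the tests were chosen with earlier results of these data known. By the rule for names, every member and the 5 entries most alike were named, and the MITF list was counted. Its 3 entries at the thresholds were named after their values were seen. So were its families miR-204, miR-145 and miR-25 and, from the pancreas list, miR-216, miR-217 and miR-375. Alternatives were other scalings, tests, pseudocounts (1 and 0.5), filters, merged entries, a replicate block and each library left out. Software was DESeq2 1.42.0, limma 3.58.1 and edgeR 4.0.16 under R 4.3.3, with scipy 1.17.1, pandas 2.3.3 and matplotlib 3.10.9 under Python 3.11.15. Genome positions are not given here.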

Additional observations from a re-analysis of the deposited data

How the results depend on the processing

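The count of 0 members at an adjusted p below 0.05 held under all 16 alternatives run. The count of members at the study's thresholds was 1, and 0 in the DESeq2 test, without a filter, with a mean count of at least 10, with identical sequences merged and with the replicate block, and it ranged from 0 to 2 with each library left out. The 2 were those without YR_S replicate 2, and aca-miR-148a-3p_1ss10TA could not be tested without any WR_S library because of the filter. The log2 ratio of the summed members (13507 against 18191 CPM) was -0.43, and -0.95 to -0.21 with each library left out.

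Of 150 alternative log2 fold changes of members 15 changed sign. For ola-miR-152_1ss23CA (0.03) it was -0.071 with DESeq2 size factors, -0.10 with the authors' factors, -0.070 in the DESeq2 test, -0.38 in limma with either pseudocount, -0.093 without a filter, -0.052 with a mean count of at least 10, -0.12 with identical sequences merged, -0.15 with identical counts taken once, -0.21 with the replicate block, and -0.77 to 0.23 with each library left out. For ssa-miR-152-5p_L-1 (-0.03) it was -0.24 to 0.085 with each library left out. The cause was not tested. The median of all entries moved from -0.03 to -0.14 with the authors' factors, -0.19 and -0.22 in limma (the 2 pseudocounts), -0.22 without a filter, -0.20 with identical sequences merged and -0.18 with identical counts taken once. Over all entries the study's thresholds gave 89 calls of 1085 tested. The lowest counts were 55 of 752 with a mean count of at least 10 and 56 of 1012 without WR_S replicate 2. The highest were 107 of 1085 in limma with pseudocount 1, 106 of 1426 without a filter and 106 of 1030 without YR_S replicate 2. DESeq2 had 36 entries past the adjustment where edgeR had 0 (113 and, in DESeq2, 115 unadjusted).

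Same-numbered libraries deviated from their group means with correlations of 0.134, 0.0459 and 0.242 over entries, each the highest of its library, which is a hint from the data only, since the labels do not tie equal numbers to 1 source. With the replicate block the thresholds gave 77 calls over all entries and 0 members passed the adjustment. The length ratio of miR-152, an alternative added after seeing the data, went from -0.41 on the log2 scale to -0.52 and -0.30 with each library left out. Depth limits the scarce entries, since 3 counts stood for 1.95 CPM in YR_S replicate 1.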
